A study of Homo sapiens with 8 samples.

Results

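The genes described here encode enzymes that make serine and glycine and move their carbon through the folate cycle. They were chosen by symbol, 10 genes in all: PHGDH, PSAT1 and PSPH of serine synthesis, SHMT1 and MTHFD1 of the cytosolic folate cycle, SHMT2, MTHFD2, MTHFD1L and ALDH1L2 of the mitochondrial folate cycle, and GCAT of glycine metabolism. Of these, 9 are listed among the 13701 genes of the HT table and 9 among the 13036 genes of the SUDHL6 table. ALDH1L2, a mitochondrial formyl-tetrahydrofolate dehydrogenase, is in neither table and was not analysed here. HT and SUDHL6 are human cell lines of diffuse large B cell lymphoma, a cancer of B lymphocytes. Each was treated for 96 hours (labelled day 4) either with iEZH or with the solvent DMSO. The series title speaks of a small molecule inhibitor of PRC2, the Polycomb complex whose EZH2 subunit methylates histone H3. The labels give no dose and no structure for iEZH, and their single note on time names iEZH for every library, so the same time is taken to hold for DMSO. Total RNA of 2 libraries per group was sequenced, 8 libraries in 4 groups. The labels do not say that the 2 libraries of a group came from separate cultures, so p-values measure only the spread between these libraries, which may be technical.

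Cells make serine from the glycolytic intermediate 3-phosphoglycerate in a chain of reactions run by PHGDH, PSAT1 and PSPH. Serine hydroxymethyltransferases, SHMT2 in mitochondria and SHMT1 in the cytosol, then split serine into glycine and a carbon unit carried on tetrahydrofolate. In mitochondria MTHFD2 and MTHFD1L oxidise that unit to formate, which leaves for the cytosol, where MTHFD1 loads it back onto folate for purine and thymidylate synthesis. In many cultured cancer cells the mitochondrial branch is known as the main source of formate. ATF4, a transcription factor of the amino acid stress response, and MYC are known activators of several of these genes in human cells.

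The libraries held 59563321 to 94821806 reads, and expression is given as FPKM, fragments per kilobase of transcript scaled to the mapped fragments of the library. Low values were deposited at a floor of 0.0613 FPKM in HT and 0.0712 in SUDHL6, and the lowest value of any member was 8.28 FPKM. All 9 listed members passed the filter of 1 FPKM in 2 libraries in both lines. The B cell markers MS4A1, CD79A, CD79B, PAX5 and CD22 were listed in both lines and passed the filter. T and NK cell markers summed to at most 2.94 FPKM in HT and are not listed in SUDHL6. The myeloid markers summed to at most 0.953 FPKM and the epithelial and stromal markers to at most 2.41 FPKM, all of it DCN in HT. In bulk RNA, fewer cells of a type and less RNA per cell cannot be told apart.

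RefSeq promoter windows, from 250 bases before to 50 bases after a start site on GRCh38.p14, were available for 7 of the 10 members. PSAT1, which had the most negative log2 change of the members, is shown beside MTHFD1L and MTHFD1, which encode the mitochondrial and the cytosolic formyl-tetrahydrofolate synthetase. Capitals mark the letters TGATGNAA, the pattern that ATF4 is known to bind with C/EBP partners, and CACGTG, the E-box known for MYC. Both were searched on both strands and did not overlap each other. Strand and coordinates are, on the forward strand, chr9:78296875-78297174 for PSAT1, chr6:150866236-150866535 for MTHFD1L and chr14:64388103-64388402 for MTHFD1.
PSAT1: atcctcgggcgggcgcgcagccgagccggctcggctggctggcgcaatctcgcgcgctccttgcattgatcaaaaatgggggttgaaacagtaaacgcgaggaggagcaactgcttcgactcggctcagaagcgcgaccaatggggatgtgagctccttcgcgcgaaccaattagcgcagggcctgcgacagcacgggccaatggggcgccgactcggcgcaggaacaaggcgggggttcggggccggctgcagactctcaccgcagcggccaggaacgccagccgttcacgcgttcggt
MTHFD1L: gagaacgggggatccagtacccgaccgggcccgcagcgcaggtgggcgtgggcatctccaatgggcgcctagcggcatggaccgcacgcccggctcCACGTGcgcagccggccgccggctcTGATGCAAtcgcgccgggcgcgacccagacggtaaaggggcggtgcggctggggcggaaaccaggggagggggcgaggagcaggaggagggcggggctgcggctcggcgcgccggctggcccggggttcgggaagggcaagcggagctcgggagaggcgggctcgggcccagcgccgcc
MTHFD1: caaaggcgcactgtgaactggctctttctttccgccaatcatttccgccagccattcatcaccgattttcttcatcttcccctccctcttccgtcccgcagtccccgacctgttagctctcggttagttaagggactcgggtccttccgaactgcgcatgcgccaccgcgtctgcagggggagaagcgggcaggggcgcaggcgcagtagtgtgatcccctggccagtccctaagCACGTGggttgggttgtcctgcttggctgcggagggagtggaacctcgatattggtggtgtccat
TGATGNAA was found in the windows of 1 member, MTHFD1L, where it begins 129 bases before the start shown. It is present in 3 of the 4 MTHFD1L windows in the table, which overlap one another. Of all 35116 windows, 3.62% hold it. CACGTG was found for 2 members, 154 bases before the start in MTHFD1L and 15 bases before it in MTHFD1. Of all windows, 7.26% hold CACGTG. These shares count windows, whereas a member with several windows is counted once, so counts and shares are not directly comparable. The windows of PSAT1, PHGDH, MTHFD2, SHMT1 and GCAT held neither run of letters; PSPH, SHMT2 and ALDH1L2 are named only.

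In HT, transcripts for serine synthesis and for the mitochondrial folate branch were lower with iEZH, at 31.2% to 60.8% of the DMSO mean, whereas the cytosolic enzymes stood at 83.8% and 87.6% and GCAT at 112%. SHMT2 passed the test over all genes, and PHGDH, PSAT1, PSPH, MTHFD2 and MTHFD1L passed when genes spanning under 300 bp were left out. In SUDHL6 the same 6 genes stood at 54.5% to 75.7% of DMSO, and none passed in either of these fits. Values below are FPKM in DMSO replicates 1 and 2, then in iEZH replicates 1 and 2.

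**Figure D1:**
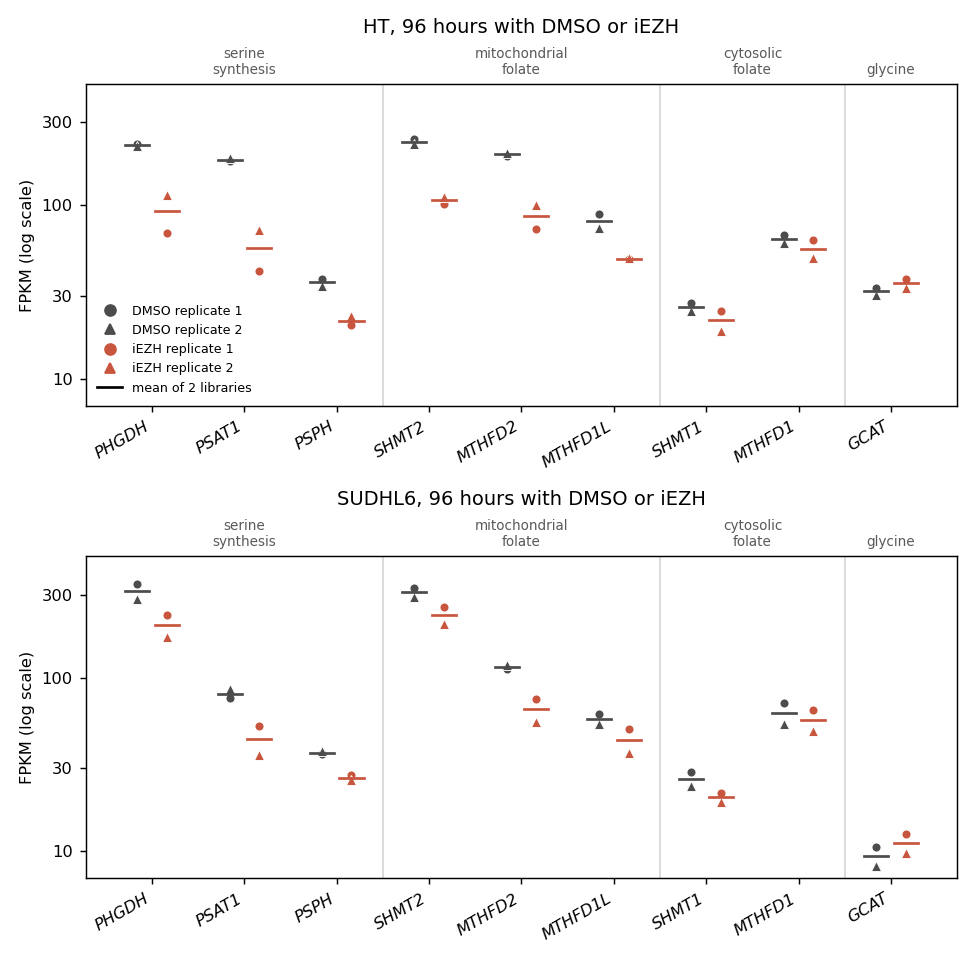
FPKM on a log scale of the 9 listed enzymes in HT (top) and SUDHL6 (bottom), with circles for replicate 1, triangles for replicate 2 and lines for the mean of 2 libraries. PHGDH, PSAT1, PSPH, SHMT2, MTHFD2, MTHFD1L and SHMT1 sit lower with iEZH in both lines without overlap, while MTHFD1 overlaps in both. For SHMT1 in HT the gap is only past the digits shown. Of all genes, 23.4% in HT and 20.6% in SUDHL6 were lower without overlap.

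PHGDH, which oxidises 3-phosphoglycerate in the first step of serine synthesis (hg19 chromosome 1, 120254418 to 120286849), had 226 and 220 FPKM in HT with DMSO and 69.6 and 115 with iEZH. Its mean went from 223 ± 4.36 to 92.2 ± 31.9 (SD, n = 2), a log2 change of -1.31 (SE 0.25; limma adjusted p = 0.072, and 0.031 without short genes). The groups lay apart, and iEZH replicate 1 was the lower of the 2 treated libraries. PSAT1, the transaminase of the second step (chromosome 9, 80912058 to 80945009), had 180 and 186 FPKM with DMSO and 42.1 and 72.2 with iEZH. Its mean went from 183 ± 3.91 to 57.1 ± 21.2 FPKM, the most negative log2 change of the members (-1.71, SE 0.26; limma adjusted p = 0.0556, and 0.0231 without short genes). Again both treated libraries were below both controls and replicate 1 was lowest. PSPH, the phosphatase that releases serine (chromosome 7, 56078743 to 56119268), had 37.5 and 34.5 FPKM with DMSO and 20.5 and 23 with iEZH (log2 change -0.70, SE 0.13; limma adjusted p = 0.0662, and 0.0383 without short genes). PSPH has a near-identical pseudogene copy on the same chromosome, so how its reads were assigned is uncertain. The PSAT1 to PSPH ratio within a library was 4.81 and 5.38 with DMSO and 2.05 and 3.13 with iEZH.

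SHMT2, the mitochondrial hydroxymethyltransferase (chromosome 12, 57623355 to 57628718), had 240 and 225 FPKM in HT with DMSO and 102 and 112 with iEZH. It fell to 46.1% of the DMSO mean (log2 change -1.11, 95% confidence interval -1.43 to -0.79; limma adjusted p = 0.0493, and 0.0207 without short genes). The 2 treated libraries lay close together and far below the controls. Over all genes its call was lost without any 1 of the 4 libraries (limma adjusted p = 0.08 to 0.142). In these fits and those below with 1 library left out, the library left alone in its group is assumed to vary like the others, so a call made there adds no support. MTHFD2, the mitochondrial methylene-tetrahydrofolate dehydrogenase and cyclohydrolase (chromosome 2, 74425689 to 74442424), had 192 and 200 FPKM with DMSO and 72.8 and 101 with iEZH (log2 change -1.18, SE 0.19; limma adjusted p = 0.0574, and 0.0251 without short genes). Both treated libraries were below both controls, and iEZH replicate 1 was again the lower. MTHFD1L, the mitochondrial synthetase that yields formate (chromosome 6, 151186814 to 151423023), had 88.9 and 73.7 FPKM with DMSO and 48.9 and 49.8 with iEZH (log2 change -0.70, SE 0.14; limma adjusted p = 0.0743, and 0.0421 without short genes). Its treated libraries nearly coincided, and its control libraries were farther apart than those of MTHFD2.

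SHMT1, the cytosolic counterpart of SHMT2 (chromosome 17, 18231186 to 18266856), had 27.4 and 24.6 FPKM in HT with DMSO and 24.6 and 19 with iEZH. The highest treated library was all but level with the lowest control and below it only past the digits shown, and the log2 change of -0.25 did not pass (95% interval -0.67 to 0.16; limma adjusted p = 0.443). MTHFD1, which joins dehydrogenase, cyclohydrolase and formyl-tetrahydrofolate synthetase activities in a single cytosolic protein (chromosome 14, 64854758 to 64926725), had 67.7 and 60.9 FPKM with DMSO and 63.2 and 49.5 with iEZH. Its groups overlapped (log2 change -0.20, 95% interval -0.61 to 0.21; limma adjusted p = 0.542). GCAT, a mitochondrial ligase that forms glycine from a threonine breakdown product (chromosome 22, 38203911 to 38213183), had 33.5 and 30.4 FPKM with DMSO and 37.8 and 33.6 with iEZH, with both treated libraries above both controls, as in 28.5% of all genes (log2 change 0.15, 95% interval -0.17 to 0.48; limma adjusted p = 0.545). In hg19 the SHMT2 span overlaps NDUFA4L2 (5.53 to 7.61 FPKM in HT) and the SHMT1 span overlaps SMCR8 (8.68 to 10.3 FPKM). Strand use in counting is not stated, so reads in a shared stretch could belong to either gene.

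Counted together in HT, 1 of 9 members passed as lower over all genes, where 0.15% of all genes tested did. At an unadjusted p under 0.05 it was 6 of 9, where 7.9% of all genes were. Without short genes 6 of 9 passed as lower, where 1.44% did. The 6 were PHGDH, PSAT1, PSPH, SHMT2, MTHFD2 and MTHFD1L. Leaving out 1 library as well, a check added after seeing the data, left 4 to 6 of them: PSPH and MTHFD1L lost their calls without DMSO replicate 1 (adjusted p = 0.172 and 0.247) and PSPH without DMSO replicate 2 (0.0836). Over all genes and without iEZH replicate 2, the adjusted p was 0.0398 for PHGDH and 0.0159 for PSAT1, with iEZH replicate 1 alone in its group. Treated and control libraries did not overlap, with iEZH lower, in 7 of 9 members, as in 23.4% of all genes. The median log2 change of the members was -0.70, against 0.02 over all genes tested. Among the 11164 genes left without short genes, PSAT1 ranked 11 from the lowest log2 change, PHGDH 26, MTHFD2 42, SHMT2 48, MTHFD1L 190 and PSPH 191, while SHMT1 ranked 1739 and MTHFD1 2349. In the authors' deposited table, whose FDR comes from a Tukey test on FPKM, no member was under 0.05 in HT, the lowest being SHMT2 at an FDR of 0.153.

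In SUDHL6, PSAT1 and MTHFD2 had the most negative log2 changes of the members. Without a replicate block, 0 of 9 members passed limma at an adjusted p of 0.05, with or without short genes. Of all genes 0.116% passed as lower, and 0% without short genes. A replicate block, which lets same-numbered libraries share a shift, called 7 of 9 members as lower, where 828 of 11173 genes were. What a replicate number stands for is not labelled, so the other values here are without the block. At an unadjusted p under 0.05, 4 of 9 were lower (PHGDH, PSAT1, PSPH and MTHFD2), where 6.28% of all genes were. In the authors' deposited table the lowest FDR of a member in SUDHL6 was 0.286, for PSPH. With short genes and iEZH replicate 1 left out, a check added after seeing the data, the limma adjusted p was 0.012 for PSAT1 and 0.0313 for MTHFD2, with iEZH replicate 2 alone in its group. PSAT1 had 76.4 and 85.4 FPKM with DMSO and 52.4 and 35.7 with iEZH (log2 change -0.88, 95% interval -1.46 to -0.31; limma adjusted p = 0.151). MTHFD2 had 112 and 118 FPKM with DMSO and 75.6 and 55.7 with iEZH (log2 change -0.82, 95% interval -1.31 to -0.32; limma adjusted p = 0.14). In both genes iEZH replicate 2 was the lowest library. PHGDH had 346 and 284 FPKM with DMSO and 230 and 172 with iEZH (log2 change -0.65; limma adjusted p = 0.224). PSPH had 36.5 and 37.6 FPKM with DMSO and 27.5 and 25.7 with iEZH, with little spread within either group (log2 change -0.46; limma adjusted p = 0.143).

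SHMT2 had 325 and 292 FPKM in SUDHL6 with DMSO and 253 and 203 with iEZH (log2 change -0.44, 95% interval -0.91 to 0.03; limma adjusted p = 0.292). MTHFD1L had 61.3 and 54.4 FPKM with DMSO and 50.7 and 36.9 with iEZH (log2 change -0.41; limma adjusted p = 0.351). SHMT1 had 28.6 and 23.8 FPKM with DMSO and 21.8 and 19.2 with iEZH (log2 change -0.34; limma adjusted p = 0.307). These 3 genes were lower with iEZH without overlap, and none passed the test without a replicate block. With 1 library left out the log2 change ran from -0.60 to -0.29 for SHMT2, from -0.63 to -0.18 for MTHFD1L and from -0.46 to -0.21 for SHMT1. MTHFD1 overlapped again, at 70.9 and 53.7 FPKM with DMSO and 65.4 and 49.3 with iEZH (log2 change -0.12, 95% interval -0.69 to 0.46). GCAT was the least abundant member in this line, at 10.6 and 8.28 FPKM with DMSO and 12.6 and 9.81 with iEZH, and its groups overlapped (log2 change 0.22; limma adjusted p = 0.59). Groups without overlap, with iEZH lower, were seen in 7 of 9 members and in 20.6% of all genes. The median log2 change of the members was -0.44, against 0.04 over all genes. Within both replicate numbers 8 of 9 members were lower with iEZH, GCAT being the exception, where 32.8% of all genes in SUDHL6 were lower in both. The same held for 8 of 9 members in HT, where 35.2% of all genes were. All 9 members were lower in iEZH replicate 2 than in iEZH replicate 1 of SUDHL6, while in HT 6 of 9 were lower in iEZH replicate 1. Between the DMSO libraries, replicate 2 was the lower in 6 of 9 members in SUDHL6 and in 7 of 9 in HT. The share of all genes was not counted, so these replicate differences are not read as particular to the members.

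**Figure D2:**
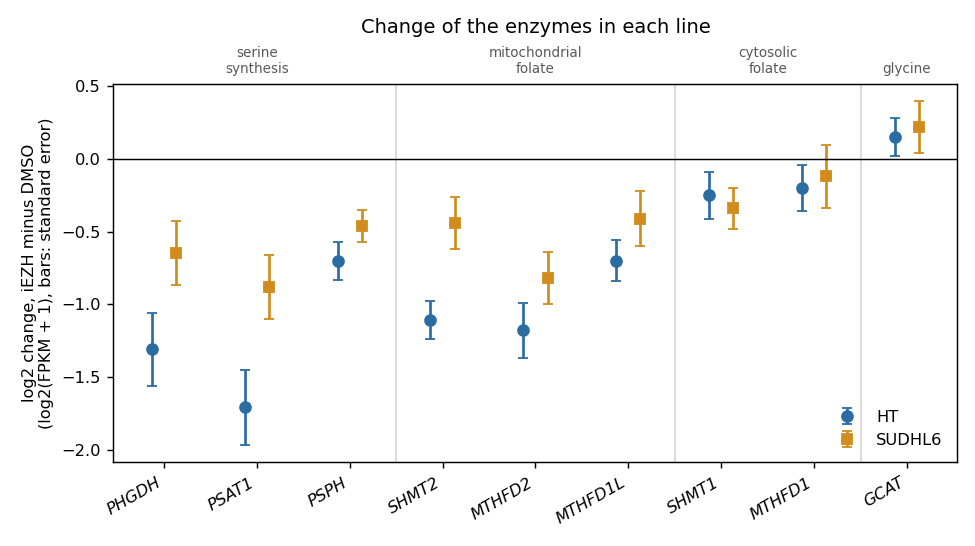
Log2 change with iEZH of each enzyme in HT (circles) and SUDHL6 (squares), from limma on log2(FPKM + 1), with standard errors as bars. In HT the changes run from -1.71 for PSAT1 to 0.15 for GCAT, and in SUDHL6 from -0.88 to 0.22 for the same genes.

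The difference between the lines, SUDHL6 change minus HT change, was tested as an interaction in limma over all 8 libraries; the tables were normalized separately, and each change was taken within its table. No member passed, 0 of 9, where 0.105% of all genes did. At an unadjusted p under 0.05 it was 1 of 9, SHMT2, with the SUDHL6 change above the HT change, where 5.76% of all genes were. SHMT2 had the smallest p among the members, with a difference of 0.67 on the log2 scale (95% interval 0.18 to 1.16; unadjusted p = 0.0149, adjusted p = 0.318). PSAT1 differed by 0.83 (95% interval -0.08 to 1.73; limma adjusted p = 0.508) and PHGDH by 0.66 (95% interval -0.20 to 1.52; limma adjusted p = 0.586). Without HT iEZH replicate 1 these were 0.45 for PSAT1 and 0.30 for PHGDH, and without HT iEZH replicate 2 PHGDH was 1.01, the range over the 8 libraries left out in turn being 0.45 to 1.21 for PSAT1 and 0.30 to 1.01 for PHGDH. For MTHFD2 the interval ran from -0.30 to 1.03, and for SHMT1 from -0.61 to 0.45. With a replicate block 0 of 9 members passed over all genes. With the block and without short genes PSAT1 and SHMT2 passed, where 1270 of 10309 genes did. The calls thus depend on replicate numbers whose meaning is not labelled. A smaller response in SUDHL6 was therefore not established for any member, nor an equal response.

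The mitochondrial and cytosolic enzymes were also compared inside each library as ratios of FPKM, which do not depend on the scaling of the library. In HT the SHMT2 to SHMT1 ratio was 8.78 and 9.12 with DMSO and 4.14 and 5.93 with iEZH. The MTHFD2 to MTHFD1 ratio was 2.84 and 3.29 with DMSO and 1.15 and 2.05 with iEZH, and that of MTHFD1L to MTHFD1 was 1.31 and 1.21, then 0.774 and 1.01. All 3 ratios were lower with iEZH without overlap in HT. In SUDHL6 the SHMT2 to SHMT1 ratio was 11.4 and 12.3 with DMSO and 11.6 and 10.6 with iEZH, and these groups overlapped. There the MTHFD2 to MTHFD1 ratio was 1.59 and 2.19 with DMSO and 1.16 and 1.13 with iEZH, and MTHFD1L to MTHFD1 was 0.865 and 1.01, then 0.775 and 0.748. Averaged over SHMT2, MTHFD2 and MTHFD1L, the mitochondrial minus the average cytosolic change was -0.77 on the log2 scale in HT and -0.33 in SUDHL6. These are descriptions of 2 libraries a group, with no test. Within the mitochondrial branch MTHFD2 was also lower relative to MTHFD1L, without overlap, from ratios of 2.16 and 2.72 to 1.49 and 2.03 in HT and from 1.83 and 2.16 to 1.49 and 1.51 in SUDHL6.

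**Figure D3:**
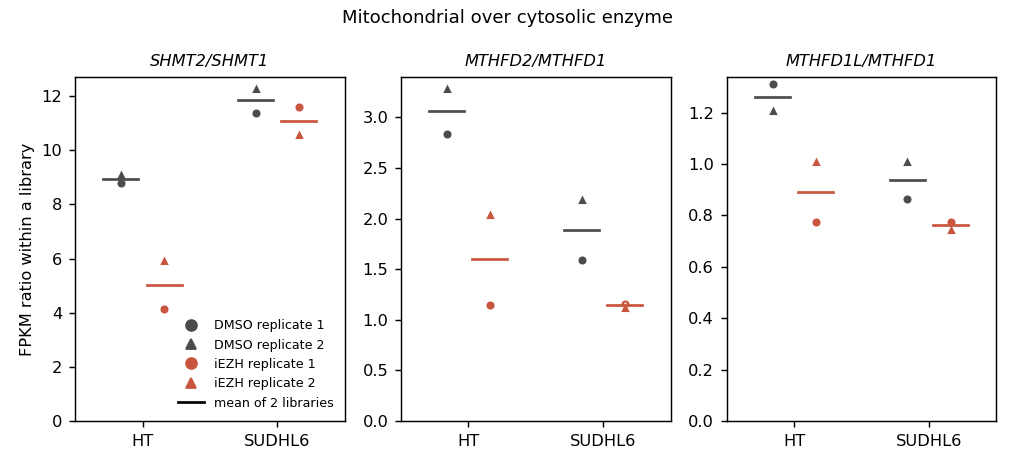
Ratio of FPKM of a mitochondrial to a cytosolic folate enzyme within each library, with circles for replicate 1, triangles for replicate 2 and lines for the mean of 2 libraries. All 3 ratios are lower with iEZH in HT; in SUDHL6 SHMT2/SHMT1 overlaps between 10.6 and 12.3, and both other ratios are lower.

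By level in FPKM, HT with DMSO was led by SHMT2 (232 ± 11, SD, n = 2) and PHGDH (223 ± 4.36), whose libraries overlapped. MTHFD2 (196 ± 5.86), PSAT1 (183 ± 3.91), MTHFD1L (81.3 ± 10.8), MTHFD1 (64.3 ± 4.76), PSPH (36 ± 2.07), GCAT (31.9 ± 2.19) and SHMT1 (26 ± 1.95) followed, each apart from its neighbours. With iEZH, PSAT1 (57.1 ± 21.2), MTHFD1 (56.4 ± 9.74) and MTHFD1L (49.4 ± 0.617) no longer separated. In SUDHL6 with DMSO, PHGDH (315 ± 43.6) and SHMT2 (309 ± 22.8) overlapped at the top, as did MTHFD1 (62.3 ± 12.2) and MTHFD1L (57.8 ± 4.84) in the middle, and GCAT (9.46 ± 1.67) was last. Set beside HT, SUDHL6 with DMSO had more PHGDH and SHMT2 and less PSAT1 (80.9 ± 6.37 FPKM), MTHFD2 (115 ± 3.64), MTHFD1L and GCAT, each without overlap, while PSPH, SHMT1 and MTHFD1 overlapped. These values are from tables normalized separately and were not tested against each other.

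The rest of the pathway was followed in lists of genes for glycine cleavage, other folate interconversion, folate uptake and retention, carbon use, methionine and transsulfuration, and serine and glycine neighbours. No gene of these lists passed over all genes in either line. Without short genes 4 passed as lower in HT and 0 in SUDHL6, where 1.44% and 0% of all genes did. In HT, of 8 neighbours of serine and glycine metabolism tested, 1 passed without short genes: SLC6A9, a glycine transporter, had 10.9 and 11.1 FPKM with DMSO and 3.85 and 5.63 with iEZH (log2 change -1.08, limma adjusted p = 0.0271). Of 5 folate uptake and retention genes tested, 1 passed: FOLR2, a folate receptor, had 5.22 and 4.85 FPKM, then 2.16 and 2.34 (adjusted p = 0.0251). Of 6 genes that use the carbon units, 1 passed: TYMS, thymidylate synthase, had 196 and 196 FPKM, then 134 and 124 (adjusted p = 0.0452), while ATIC of purine synthesis had a log2 change of 0.03. Of 6 methionine and transsulfuration genes tested, 1 passed: CTH, which makes cysteine, had 49.5 and 53.9 FPKM, then 10.6 and 18.9 (log2 change -1.80, adjusted p = 0.022). The treated libraries were below the controls in all 4 genes, as in 23.4% of all genes in HT. These 4 were named for passing as lower in the same libraries, so this adds no support. None of the 3 glycine cleavage genes and none of 5 other folate interconversion genes tested passed. GCSH had 8.3 FPKM on average with DMSO and 12.4 with iEZH, AMT 3.66 and 3.19, and MTHFD2L 1.15 and 1.78.

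Median log2 changes of these lists in HT lay between -0.19 for methionine and transsulfuration and 0.17 for folate uptake and retention, against -1.31 for serine synthesis and -1.11 for the mitochondrial folate enzymes. In SUDHL6 they lay between -0.11 and 0.16, against -0.65 and -0.44. The genes with the smallest p in SUDHL6, none of which passed, were CTH (27.4 and 10.6 FPKM on average, adjusted p = 0.113) and CBS (24.9 and 19.3), TYMS (154 and 106), and SLC1A4 (47.4 and 32.7) and GNMT (1.46 and 2.54). Those of the remaining lists were DLD (55.9 and 47.7) and AMT (4.62 and 5.22), and SLC46A1 (1.71 and 2.21) and SLC19A1 (21.1 and 17.4). The glycine decarboxylase gene GLDC and the cytosolic gene ALDH1L1 are listed in neither table.

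**Figure D4:**
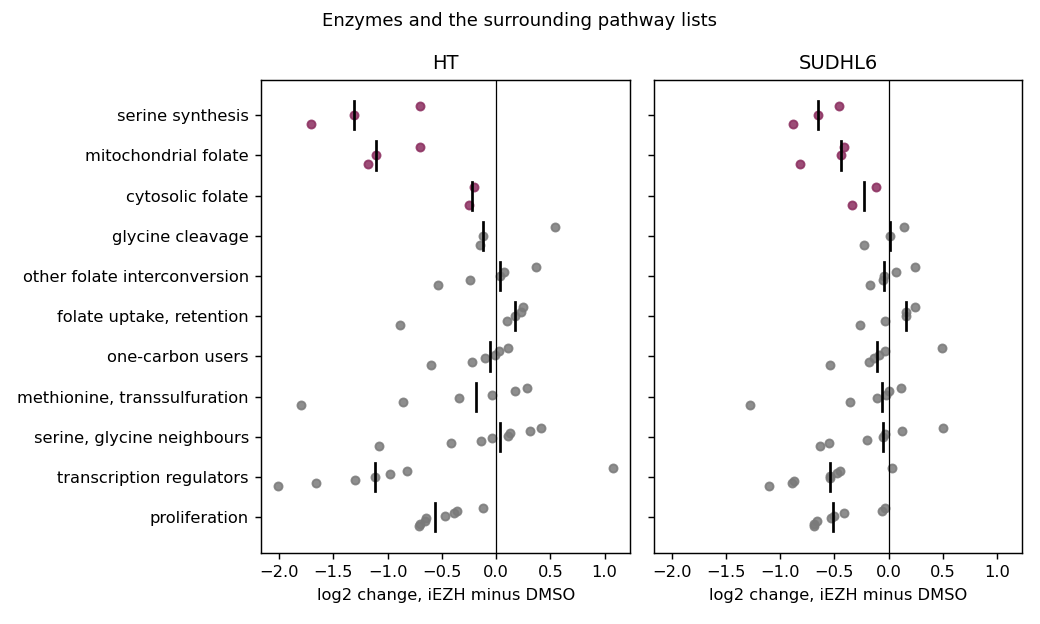
Log2 change with iEZH of each tested gene (points) in the enzyme groups and in the surrounding lists, with the list median as a black line, in HT (left) and SUDHL6 (right). In HT the medians are -1.31 for serine synthesis, -1.11 for mitochondrial folate enzymes, -1.12 for transcription regulators and -0.56 for proliferation. In SUDHL6 they are -0.65, -0.44, -0.54 and -0.52 in the same order. The other metabolic lists lie nearer 0 in both lines.

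Transcripts of regulators and of proliferation genes are given beside the enzymes. ATF4 had 723 and 676 FPKM in HT with DMSO and 383 and 407 with iEZH (log2 change -0.82; limma adjusted p = 0.0634, and 0.0255 without short genes). In SUDHL6 it had 603 and 603 FPKM, then 448 and 385 (log2 change -0.54, limma adjusted p = 0.21). Treated libraries were below controls in both lines. Of 7 regulators tested in HT, 0 passed over all genes, and without short genes 6 passed as lower (ATF4, DDIT3, ATF5, CEBPB, CEBPG and TRIB3) and 1, MYC, as higher. Of all 11164 genes in the HT fit without short genes, 161 (1.44%) passed as lower and 454 as higher. MYC had 82.7 and 61.7 FPKM with DMSO and 156 and 149 with iEZH in HT, and 181 and 155, then 177 and 165 in SUDHL6. MYC was higher without overlap in HT, and its groups overlapped in SUDHL6. In SUDHL6 0 of 8 regulators tested passed, those with the smallest p being ATF3 (3.55 and 1.18 FPKM on average) and CEBPB (11.9 and 6.03). All 8 proliferation genes had negative changes in both lines, where 47.6% of all genes tested in HT and 43% in SUDHL6 did. Their medians were -0.56 and -0.52, and 0 passed over all genes. Some changes were small, as for CCNB1 (-0.12 in HT and -0.06 in SUDHL6) and for TOP2A in SUDHL6 (-0.03). Without short genes PCNA, MCM6, CCNA2 and RRM2 passed as lower in HT and 0 in SUDHL6, where MCM6 (92.8 and 57.2 FPKM) and RRM2 (92 and 58) had the smallest p. The summed level of the proliferation genes was 979 to 1040 FPKM with DMSO and 687 to 730 with iEZH in HT, and 1010 to 1020 and 692 to 780 in SUDHL6. The part of these changes in the enzyme results was not tested.

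The genes whose profile lay nearest to PSAT1 and to SHMT2 were found by Euclidean distance over the 8 libraries, after centring log2(FPKM + 1) on the mean of each line, among 10309 genes of 300 bp or more. Nearest to PSAT1 were ATF5 (distance 0.21), a transcription factor of the stress response, then CTH (0.48), ASNS (0.48), which makes asparagine, SLC43A1 (0.52), an amino acid transporter, and CEBPB (0.55). ATF5 averaged 323 and 104 FPKM in HT and 250 and 138 in SUDHL6, and ASNS 365 and 134, then 262 and 166. Nearest to SHMT2 were YARS (0.20), SARS (0.23), PRIM1 (0.25), GARS (0.28) and FERMT3 (0.30). YARS, SARS and GARS are tRNA synthetases for tyrosine, serine and glycine, PRIM1 is a DNA primase subunit and FERMT3 a partner of integrins in blood cells. SARS averaged 213 and 105 FPKM in HT and 206 and 143 in SUDHL6, and GARS 244 and 125, then 208 and 140. Among the members PHGDH and MTHFD2 were each other's nearest (0.37), as were PSPH and MTHFD1L (0.33) and SHMT1 and MTHFD1 (0.30). All profiles share the same 8 libraries, so these distances are descriptions.

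**Figure D5:**
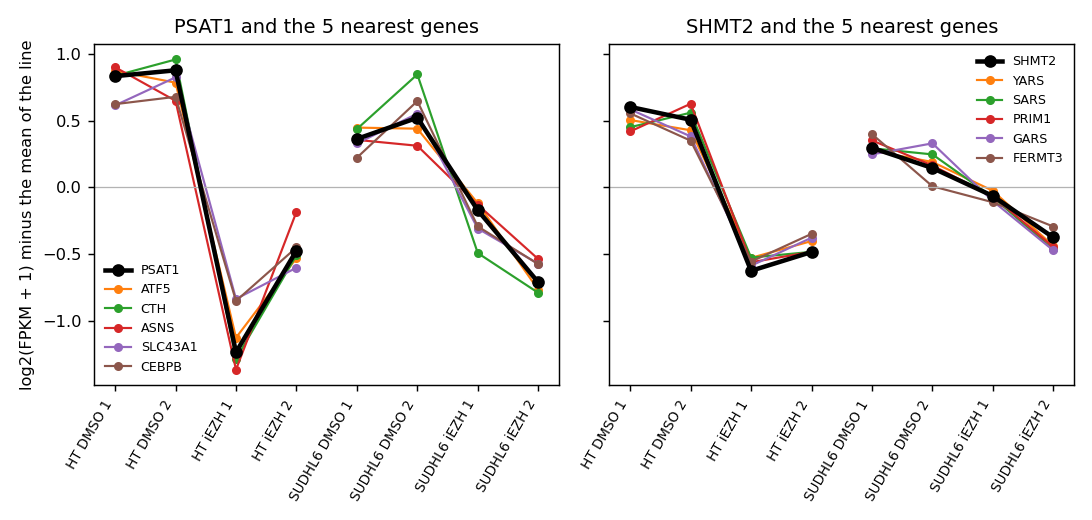
Log2(FPKM + 1) minus the mean of the line, in each of the 8 libraries, for PSAT1 (left, black) and SHMT2 (right, black) with the 5 nearest genes of each in colour; lines only join the values of a gene within a cell line. PSAT1 and its neighbours are lowest in HT iEZH replicate 1, with ATF5 at a distance of 0.21, and in SUDHL6 they are lowest in iEZH replicate 2.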

How the data were processed

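Per the submitters' processing notes, the tools were TopHat 1.4.1 and Cufflinks and the genome build hg19; the authors deposited FPKM per gene symbol and library in 1 table per line, with genes kept as detectable and low values set to a floor. Library kit, strandedness and annotation are not given in the sources used here. The authors' deposited tables also hold an FDR (adjusted p-value) from a Tukey test and a fold, the ratio of mean iEZH to mean DMSO. Totals of 59563321 to 94821806 reads are given per the file headers. The count behind each FPKM value is not used here, so no counting intervals are given.

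Columns were matched to the labels through the deposited sample sheet, with 0 columns unused. An HT gene holding text in place of an FPKM was dropped. Genes reaching 1 FPKM in 2 libraries of a line (11321 in HT, 11173 in SUDHL6) were fitted on log2(FPKM + 1), which understates changes of low genes, with limma 3.58.1 (eBayes, trend) in R 4.3.3. Tests were two-sided, with Benjamini-Hochberg adjustment over all genes tested and calls at 0.05; the interaction was fitted over 10427 genes. Only the fit of a single line without short genes was run on simulated data, with noise drawn independently for each library. The fit over all genes, the interaction and the replicate block were not simulated. The alternative fits left out genes spanning under 300 bp, changed the pseudocount (0.1), the filter (none or 5 FPKM) or the normalization (quantile), added a replicate block, fitted both lines together, or left out each library in turn. The members, lists and tests were chosen with earlier results of these data known. Named are all members, list genes called with or without short genes or else the 2 with the smallest p, ATF4 and MYC, and the 5 genes nearest to PSAT1 and to SHMT2. Some genes that this rule names are not reported here. ATIC, GLDC, ALDH1L1 and TDH were picked after their values were seen. Promoter windows are RefSeq's, on GRCh38.p14; gene coordinates are the authors', on hg19, with starts as deposited.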

Additional observations from a re-analysis of the deposited data

How the results depend on the processing

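The HT counts of genes and of members called were 69 and 1 as reported, 12 and 0 with no filter, 41 and 0 with a filter of 5 FPKM, 36 and 0 with quantile normalization, 615 and 6 without short genes, and 648 and 5 with both lines in 1 fit. They ran from 35 to 108 and 0 to 2 with 1 library left out, and from 467 to 1163 (500 without DMSO replicate 1, 1063 without iEZH replicate 1) and 4 to 6 when short genes were left out as well. PHGDH and PSAT1 passed over all genes without HT iEZH replicate 2 (adjusted p = 0.0398 and 0.0159). The SUDHL6 counts were 30 and 0 as reported, 2 and 0 without short genes, 351 and 0 in 1 fit, 30 to 49 and 0 with 1 library left out, and 200 to 467 (295 without DMSO replicate 1, 224 without iEZH replicate 2) and 0 to 2 when short genes were left out as well, the 2 being PSAT1 and MTHFD2 without iEZH replicate 1. The count for the difference between lines was 11 as reported, 17 with a pseudocount of 0.1, 18 with no filter, 7 without short genes, and 4 to 15 with 1 library left out. A fit with 1 library left out leaves a group of 1, assumed to vary like the others. The cause of these changes was not tested.

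What a replicate number stands for is not labelled, and a line has only 2 pairs; deviations of same-numbered libraries correlated at 0.62 in HT and 0.73 in SUDHL6 across genes. With a replicate block 2482 genes and 6 members were called in HT, 2313 and 7 in SUDHL6, and 543 and 0 for the difference. With the block and without short genes the counts were 3743 and 6, 3780 and 7, and 1270 and 2; the 2 were PSAT1 (adjusted p = 0.0475) and SHMT2 (0.00883), and the SUDHL6 members were all but MTHFD1 and GCAT.

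Signs changed only for small values, counting the settings run. MTHFD1 in SUDHL6 ran from -0.32 to 0.08 with 1 library left out, in both sets of genes. The difference between lines ran from -0.26 to 0.10 for SHMT1, from -0.12 to 0.28 for MTHFD1 and from -0.10 to 0.23 for GCAT, which was -0.03 with quantile normalization. The mitochondrial minus cytosolic change kept its sign, from -1.06 to -0.49 in HT and from -0.45 to -0.21 in SUDHL6 with 1 library left out. The 2 libraries per group limit every estimate.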

Other observations

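The PHGDH to PSAT1 ratio of FPKM, picked after its values were seen, was 1.25 and 1.18 in HT with DMSO and 1.65 and 1.59 with iEZH, higher without overlap, and 4.52 and 3.32, then 4.4 and 4.81 in SUDHL6, with overlap. In SUDHL6 the PHGDH to PSPH ratio overlapped as well, at 9.47 and 7.55 with DMSO and 8.37 and 6.68 with iEZH, whereas in HT it was 6.04 and 6.37, then 3.4 and 4.98. TDH, whose product feeds GCAT in other mammals and which is a pseudogene in humans, had 1.2 and 2.23 FPKM in HT with DMSO and 2.69 and 2.41 with iEZH (log2 change 0.41, limma adjusted p = 0.342) and is not listed in SUDHL6.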
